A study of Mus musculus with 16 samples.

Results

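The genes encoding platelet-derived growth factors (PDGFs) and their receptors were followed in single cells of the newborn mouse testis. The set was fixed by name and held 6 of the 30451 genes in the count table, 4 ligand genes (*Pdgfa*, *Pdgfb*, *Pdgfc* and *Pdgfd*) and 2 receptor genes (*Pdgfra* and *Pdgfrb*). Whole testes of wild-type and germ cell-specific *Ddx5* knockout mice were dissociated with TrypLE at postnatal day 2 and captured in droplets. The knockout came from mice with floxed *Ddx5* alleles crossed to *Mvh*-Cre mice, in which the *Mvh* promoter drives the recombinase in germ cells, so that the deletion is aimed at germ cells and not at the somatic cells described below. For each genotype 8 libraries are numbered in the labels, but the barcodes carry only 1 suffix per genotype, so each genotype was handled as 1 library, no test was possible between them and no p-value is given. The labels also name a lane for each numbered library. Only 1 lane held both genotypes, so lane and genotype cannot be fully told apart. How many animals stand behind a library is not given in the sources used here.

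PDGF chains pair into dimers that bring receptor molecules together at the cell surface and start growth and migration signals through kinase cascades. PDGF-A and PDGF-C chains act mainly through PDGFRA, PDGF-D chains through PDGFRB, and PDGF-B chains through both. In the testis, PDGF-A from the seminiferous cords is known to act on PDGFRA-bearing interstitial cells from which adult Leydig cells arise, and in blood vessels PDGF-B from endothelium is known to recruit PDGFRB-bearing pericytes.

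The wild-type library held 6763 barcodes and the other 5423, with 84263163 and 67558106 unique molecular identifiers (UMIs, each marking 1 captured mRNA). Barcodes were kept where 2000 genes or more were detected and no more than 10% of UMIs were mitochondrial. This left 6329 wild-type cells and 4950 of the library labelled *Ddx5* knockout, with medians of 11170 and 11668.5 UMIs. Only 12 barcode sequences occurred under both suffixes. *Ddx5* itself went against the label. In germ cells it stood at 1152 CPM (UMIs of a gene in every 1000000 UMIs) in wild type and 1736 CPM in the other library, with somatic gates between 566 and 936 CPM in both. The kit counts an mRNA near its 3′ end, and the sources used here do not say which exons are deleted, so this count need not see the deletion. Genotype is therefore given below only as the label of a library. CRE transcripts were counted 0 times in wild type and 20 times in the other library, and GFP transcripts of the *Oct4*-GFP transgene 488 and 22 times.

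Cell types were gated on marker UMIs per cell, and a cell could pass more than 1 gate. Sertoli cells, which nurse germ cells inside the cords, had at least 3 *Amh* UMIs (2256 wild-type cells and 1635 of the library labelled knockout). Leydig cells, which make androgen, had at least 20 UMIs of *Cyp11a1*, *Cyp17a1* and *Hsd3b1* together (177 and 143 cells). Peritubular myoid cells, the smooth muscle around the cords, had at least 5 *Acta2* and 2 *Myh11* UMIs (764 and 524 cells). Interstitial stroma had at least 3 UMIs of *Lum*, *Dpt* and *Aspn* or at least 2 of *Tbata* and *Smoc2*, with at most 2 of *Amh* (3541 and 2966 cells). Macrophages had at least 5 UMIs of *C1qa*, *C1qb* and *C1qc* (31 and 23 cells), and germ cells at least 3 of the 4 genes *Dazl*, *Ddx4*, *Mael* and *Stk31* (125 and 12 cells).

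Separate markers, not used for gating, were highest in their own gate for 6 of 6 Sertoli, 5 of 5 Leydig and 5 of 5 macrophage genes in both libraries. For myoid cells this held for 4 of 5 genes in both, for stroma for 5 of 6 and 6 of 6, and for germ cells for 6 of 6 and 5 of 6, with *Nanos3* at 0 in the germ gate of the library labelled knockout. The gates overlapped. Of 1288 myoid-gated cells, 1037 also passed the stroma gate, and of the 125 germ-gated cells of wild type 39 also passed the Sertoli gate and 40 the stroma gate. Values are therefore also given for cells that passed exactly 1 gate. Levels are UMIs summed over the cells of a gate, in CPM, with exact Poisson 95% intervals, and shares of cells have exact Clopper-Pearson 95% intervals, all for counting error only.

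In the mouse genome (GRCm38, GENCODE M21 annotation) *Pdgfa* lies at chr5:138976014-138997370 on the minus strand and *Pdgfra* on the same chromosome at chr5:75152292-75198215 on the plus strand. *Pdgfb* lies at chr15:79995874-80014977 on the minus strand, *Pdgfc* at chr3:81036416-81214040 and *Pdgfd* at chr9:6168584-6378850 on the plus strand, and *Pdgfrb* on chromosome 18. All 6 are protein-coding. An annotated transcript of the other strand overlaps *Pdgfa* (6330403L08Rik), *Pdgfb* (Gm41361), *Pdgfc* (Gm16000), *Pdgfd* (Ddi1) and *Pdgfra* (Gm42802 and Gm42803). The sources used here do not state whether counting used the strand, and without it reads of such a pair cannot be told apart.

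RefSeq promoter windows (GRCm38.p6, 250 bases before to 50 after a transcript start, 300 bases each) were read for 4 of the 6 genes. Any window on the chromosome of *Pdgfrb* was left out. Both *Pdgfa* windows are shown because *Pdgfa* was the member with the widest gap between its highest gate and the next, and those of *Pdgfc*, *Pdgfd* and *Pdgfra* because all 3 were highest in stroma. Capitals mark exact matches on either strand to a GC box (GGGCGG, read as CCGCCC on the other strand), a GATA core (GATAA), a SOX core (ACAAT) or a TATA box (TATAAA), and no match overlapped another.

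Pdgfa, chr5:138994895-138995194, minus strand: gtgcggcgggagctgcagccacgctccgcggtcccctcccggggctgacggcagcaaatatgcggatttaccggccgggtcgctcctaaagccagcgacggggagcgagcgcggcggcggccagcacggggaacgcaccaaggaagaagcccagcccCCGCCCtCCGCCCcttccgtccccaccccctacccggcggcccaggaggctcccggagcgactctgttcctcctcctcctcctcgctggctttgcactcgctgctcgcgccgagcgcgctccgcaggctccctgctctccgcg
Pdgfa, chr5:138994232-138994531, minus strand: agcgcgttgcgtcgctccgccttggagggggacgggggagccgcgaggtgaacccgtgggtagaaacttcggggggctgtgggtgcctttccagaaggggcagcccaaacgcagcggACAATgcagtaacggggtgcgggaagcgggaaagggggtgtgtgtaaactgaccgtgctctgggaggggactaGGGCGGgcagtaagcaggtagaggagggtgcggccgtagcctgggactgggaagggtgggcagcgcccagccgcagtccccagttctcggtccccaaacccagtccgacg
Pdgfc, chr3:81036166-81036465, plus strand: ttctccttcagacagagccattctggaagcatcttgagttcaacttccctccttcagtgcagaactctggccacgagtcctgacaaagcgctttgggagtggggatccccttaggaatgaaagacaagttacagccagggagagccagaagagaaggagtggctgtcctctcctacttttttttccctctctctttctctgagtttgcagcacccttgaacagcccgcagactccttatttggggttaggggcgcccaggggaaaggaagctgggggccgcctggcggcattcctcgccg
Pdgfd, chr9:6168236-6168535, plus strand: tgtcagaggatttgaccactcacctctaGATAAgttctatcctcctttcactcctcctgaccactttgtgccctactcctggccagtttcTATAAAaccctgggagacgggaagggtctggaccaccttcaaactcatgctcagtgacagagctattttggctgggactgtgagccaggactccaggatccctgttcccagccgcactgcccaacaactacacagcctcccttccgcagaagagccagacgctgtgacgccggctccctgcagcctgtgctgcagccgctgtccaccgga
Pdgfra, chr5:75152001-75152300, plus strand: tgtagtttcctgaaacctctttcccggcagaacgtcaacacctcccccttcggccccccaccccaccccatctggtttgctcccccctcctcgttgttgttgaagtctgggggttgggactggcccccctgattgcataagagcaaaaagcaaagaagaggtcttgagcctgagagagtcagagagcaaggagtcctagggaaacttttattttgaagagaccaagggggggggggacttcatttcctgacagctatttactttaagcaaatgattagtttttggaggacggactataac

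The first *Pdgfa* window was 73.3% G and C and held 2 GC boxes. The second, 67% G and C, held 1 GC box and 1 SOX core, and both lie inside the annotated span of the gene. The *Pdgfd* window held 1 GATA core and 1 TATA box, and those of *Pdgfc*, 55% G and C, and *Pdgfra*, 51%, held none of the 4. Of 32851 windows of this length in the table, 35.7% held a GC box, 25.4% a GATA core, 31.0% a SOX core and 13.6% a TATA box. A match is a string of letters, and none was tested as a binding site.

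Among the ligand genes, *Pdgfa* was a gene of Sertoli cells, and nearly every one of them had it. It stood at 375 CPM (95% interval 369 to 381) in Sertoli-gated cells of wild type and at 342 CPM (335 to 349) in those of the library labelled knockout. A *Pdgfa* UMI was found in 95.7% and 96.0% of these cells, with a median of 5 UMIs per cell in both libraries, 10th and 90th percentiles of 1 and 12, and at most 48 and 44. After each cell was thinned to 5000 UMIs the shares were 77.2% and 73.5%. Sertoli cells that passed no other gate made up 34.3% and 32.3% of all cells and held 87.1% and 88.0% of all *Pdgfa* UMIs.

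The other gates were far lower in *Pdgfa*. In wild type the order below Sertoli was germ at 104 CPM, myoid at 32.6 CPM, stroma at 30.3 CPM, macrophage at 26.4 CPM and Leydig at 26.2 CPM, and the intervals of the last 4 overlapped. In the library labelled knockout macrophages followed Sertoli cells at 64.8 CPM, then Leydig at 33.7 CPM, myoid at 32.9 CPM, stroma at 30.3 CPM and germ at 13.0 CPM. The Sertoli level was 3.62-fold above the next gate in wild type and 5.28-fold in the other library.

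**Figure D1:**
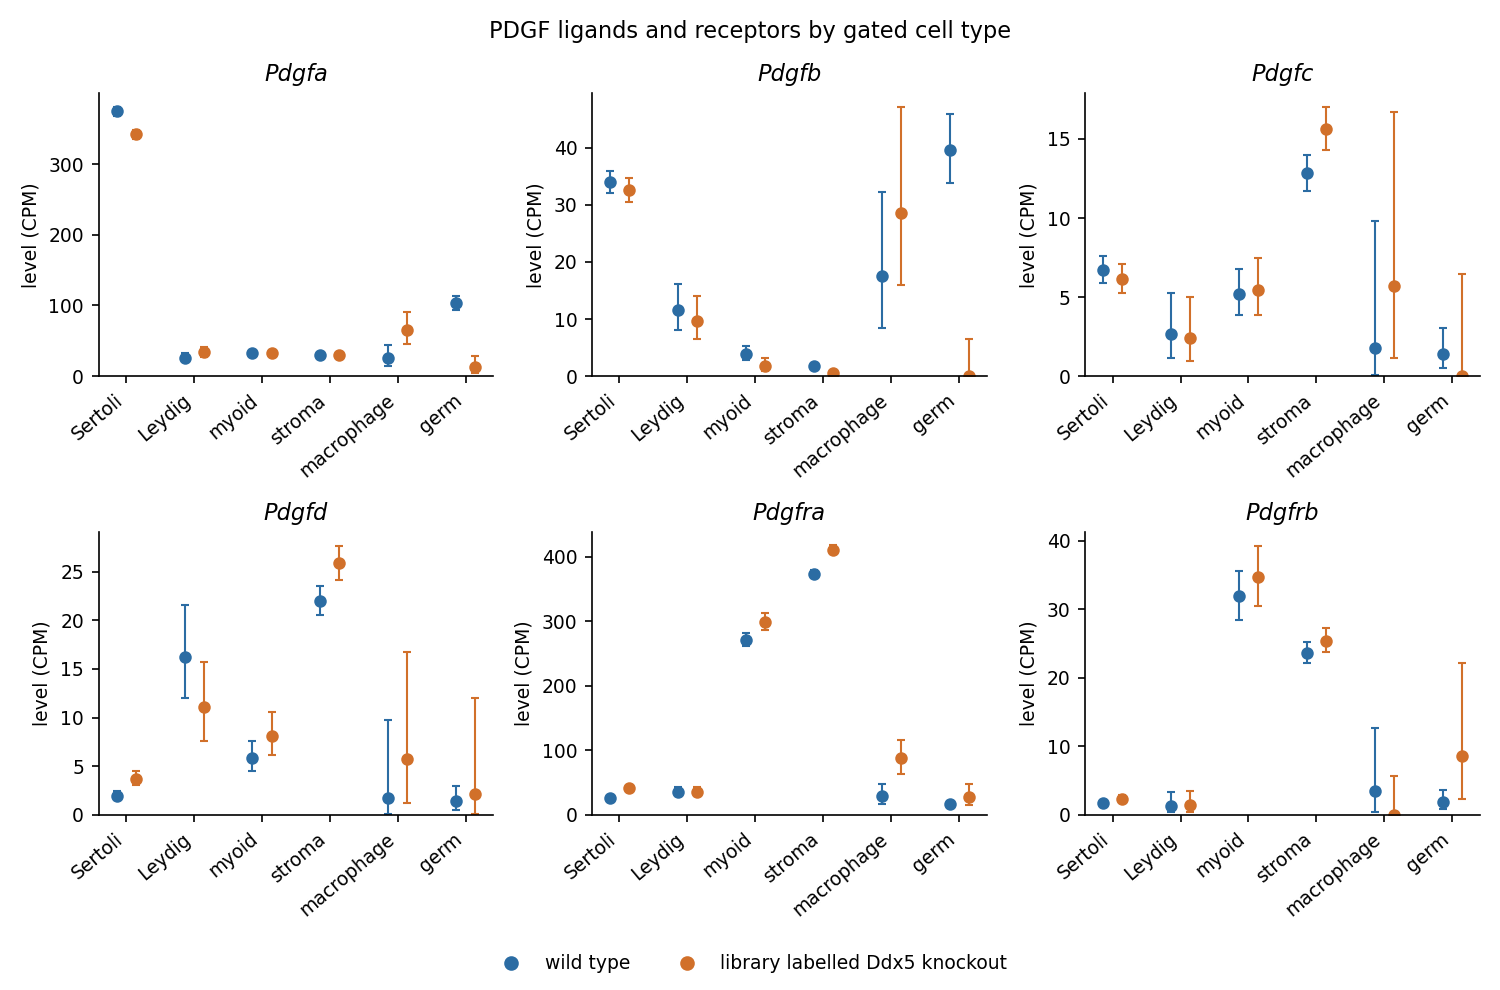
Level (CPM, y axes from 0) of each PDGF gene in 6 gates (x axes), for wild type (blue) and the library labelled *Ddx5* knockout (orange), with 95% Poisson intervals or, at a level of 0, a bar up to the CPM of 3 UMIs. *Pdgfa* peaks in Sertoli cells at 375 and 342 CPM, *Pdgfc*, *Pdgfd* and *Pdgfra* in stroma and *Pdgfrb* in myoid cells, while *Pdgfb* is high in Sertoli cells of both libraries and in germ cells of wild type.

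*Pdgfb* was found in more than 1 kind of cell. In wild type it was highest in germ-gated cells, at 39.6 CPM (33.9 to 46.0; 171 UMIs), with Sertoli cells close behind at 33.96 CPM (32.1 to 35.9) and overlapping intervals. This order turned at no more than 5% mitochondrial UMIs, with 25.2 CPM in germ and 33.3 CPM in Sertoli cells, and after thinning, with 35.8 and 36.3 CPM. Macrophages followed at 17.6 CPM, from 10 UMIs, and Leydig cells at 11.6 CPM, with overlapping intervals, while myoid cells at 3.89 CPM and stroma at 1.76 CPM were lowest. In the library labelled knockout Sertoli cells led at 32.6 CPM, before macrophages at 28.6 CPM (15 UMIs), Leydig cells at 9.74 CPM, myoid cells at 1.83 CPM and stroma at 0.613 CPM, and the intervals of the first pair overlapped.

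*Pdgfb* differed between the germ-gated cells of the libraries, as did most genes in this gate, with 70.8% of 12394 past 1.5-fold. A UMI was found in 59.2% (50.1 to 67.9) of the 125 germ-gated cells of wild type and in 0 of the 12 of the other library, which leaves a share of up to 26.5% possible. Germ-gated cells were deep, with medians of 34394 and 34528 UMIs. At 5000 UMIs per cell the wild-type share was 17.1%, beside 15.9% of the Sertoli cells. The wild-type share at this depth lies below the 26.5% that 0 of 12 leaves possible, so the shares of cells do not separate the libraries there. The 74 germ-gated cells with a *Pdgfb* UMI were deeper, with a median of 39645 UMIs, than the 51 without, with 24153. The 41 wild-type cells that passed the germ gate alone gave 34.9 CPM from 37 UMIs. *Pdgfb* was thus present in wild-type germ cells of no other gate, and stood at 35.3 CPM in the 86 germ-gated cells outside the Sertoli gate and at 46.7 CPM in the 39 inside it.

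*Pdgfc* and *Pdgfd* were lower-count genes of the interstitium. *Pdgfc* stood at 12.8 CPM (11.7 to 14.0) in stroma of wild type and 15.6 CPM (14.3 to 17.02) in the other library, followed by Sertoli cells at 6.71 and 6.15 CPM and myoid cells at 5.18 and 5.48 CPM, whose intervals overlapped. Leydig cells gave 2.66 and 2.44 CPM from 8 and 7 UMIs, and germ cells 6 and 0 UMIs. A *Pdgfc* UMI was found in 11.2% and 13.3% of stromal cells, so that most of them had none at this depth.

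*Pdgfd* was likewise highest in stroma, at 22.02 CPM (20.6 to 23.5) and 25.8 CPM (24.1 to 27.7), with a UMI in 19.8% and 22.9% of the cells. Leydig cells came next, at 16.3 CPM (12.04 to 21.5) and 11.1 CPM (7.61 to 15.7). The stroma and Leydig intervals overlapped in wild type and not in the other library. Myoid cells gave 5.88 and 8.14 CPM and Sertoli cells 1.92 and 3.70 CPM, while macrophages held 1 and 3 UMIs and germ cells 6 and 1.

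Of the receptor genes, *Pdgfra* was found in nearly every stromal cell. It stood at 374 CPM (368 to 380) in wild type and 411 CPM (404 to 418) in the other library, with a UMI in 93.9% and 96.2% of stromal cells and a median of 4 UMIs per cell in both. Myoid cells followed at 272 CPM (262 to 282) and 299.5 CPM (287 to 312), with a UMI in 92.8% and 95.2%. At 5000 UMIs per cell the stromal shares were 81.2% and 84.0% and the myoid shares 71.6% and 76.1%. Leydig cells gave 35.9 and 35.8 CPM, Sertoli cells 27.0 and 41.3 CPM, macrophages 29.9 and 87.6 CPM (17 and 46 UMIs) and germ cells 17.1 and 28.1 CPM (74 and 13 UMIs), all far below stroma and myoid cells.

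The cells that passed no gate at all, 187 and 152, were also high in *Pdgfra*, at 233 and 222 CPM with a UMI in 61.0% and 55.3%. In cells of exactly 1 gate the contrast was sharper. *Pdgfra* was found in 95.2% and 96.3% of stroma-only cells but in 0 of 22 and 1 of 14 macrophages, and Leydig-only cells gave 11.8 and 11.6 CPM. The 46 UMIs of the macrophage gate therefore lay, all but 1, in cells that passed a further gate.

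*Pdgfrb* was the only member that was highest in myoid cells. It stood there at 31.9 CPM (28.5 to 35.6) and 34.7 CPM (30.5 to 39.3), above stroma at 23.6 CPM (22.1 to 25.2) and 25.4 CPM (23.7 to 27.2), and the intervals did not overlap in either library. A UMI was found in 31.9% and 35.5% of myoid cells and in 21.4% and 22.6% of stromal cells. Sertoli cells gave 1.68 and 2.35 CPM and Leydig cells 1.33 and 1.39 CPM, while macrophages held 2 and 0 UMIs and germ cells 8 and 4.

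Across all genes with at least 10 CPM in at least 1 gate, 29.1% of 12070 in wild type and 32.9% of 12480 in the library labelled knockout were at least 2-fold above the next gate in their highest. Of the 6 members this held for 1 in wild type, *Pdgfa*, and for 3 in the other library, *Pdgfa*, *Pdgfc* (2.54-fold) and *Pdgfd* (2.32-fold).

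Free RNA and cells captured together can bring UMIs of a gene into any gate, so the level of a ligand outside its main source was set beside the 6 Sertoli markers in the same cells. Each is given as a percentage of its own level in Sertoli cells, in cells of exactly 1 gate. In stroma *Pdgfa* stood at 8.27% and 9.48% of its Sertoli level, above all 6 markers, which ranged from 0.495% to 4.72% and from 0.458% to 4.41%. In myoid cells it stood at 3.46% and 3.96%, above 5 of the 6, with *Sox9* higher at 16.7% and 15.4%. In Leydig cells it was 2.08% and 2.31%, above 4 of the 6. In macrophages it was 4.10% and 12.2%, again above all 6, but from 5 and 11 UMIs. The part of free RNA in these levels was not tested.

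*Pdgfb* separated the gates in another way. In stroma it was at 0.505% and 1.27% of its Sertoli level, within the markers' range in both libraries, from 5 and 11 UMIs. In Leydig cells it was at 35.0% and 30.1% and in macrophages at 67.1% and 69.3%, above all 6 markers in each case, although the macrophage values came from 7 and 6 UMIs. In wild-type germ cells it reached 104%, beside marker values of 0.789% to 2.79%, and *Pdgfa* there stood at 14.9%.

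**Figure D2:**
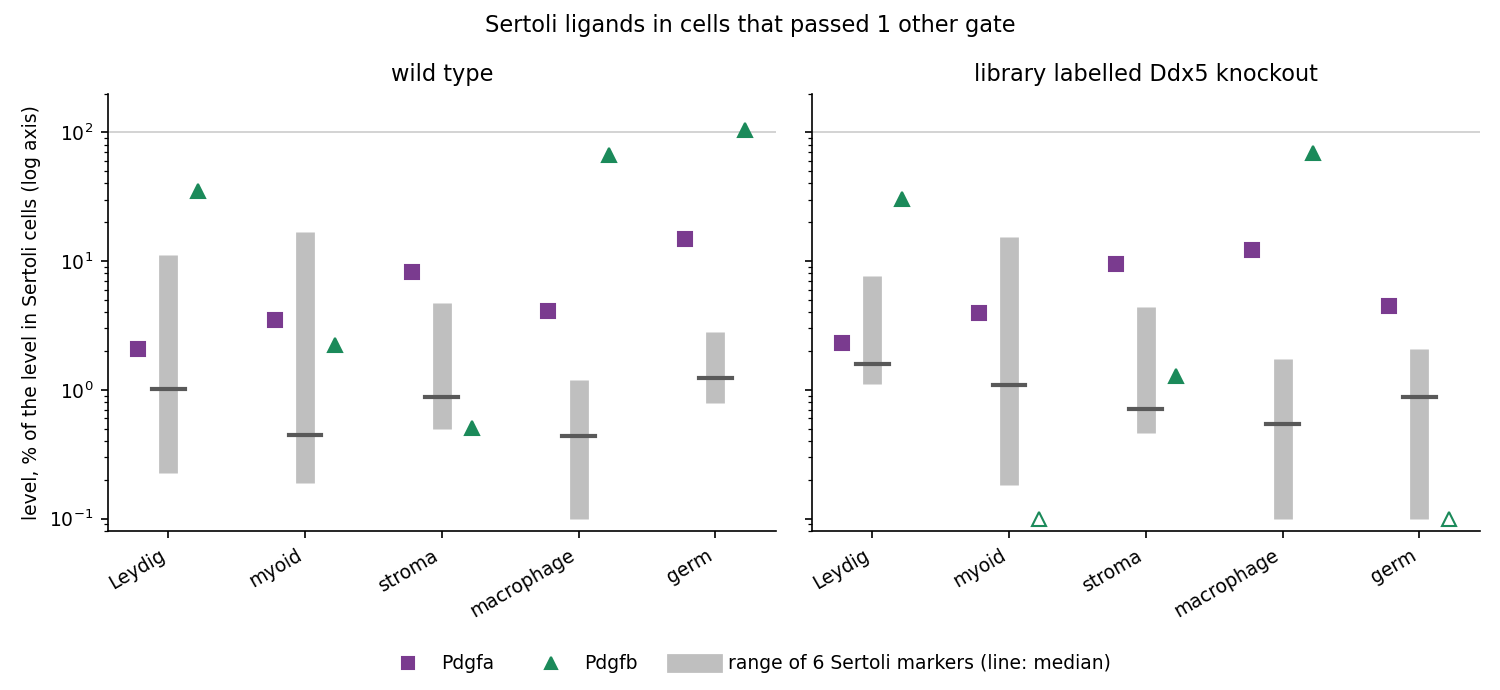
Level of *Pdgfa* (squares) and *Pdgfb* (triangles) in cells that passed only the named gate (x axis), as a percentage of the same gene's level in Sertoli-only cells (log y axis), with grey bars for the range of 6 Sertoli markers, a dark line for their median, and values under 0.1% drawn at 0.1% (open symbols, bar ends). *Pdgfa* lies above all 6 markers in stroma at 8.27% and 9.48%, and *Pdgfb* in Leydig cells at 35.0% and 30.1%.

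The same reading was made from the stromal side. *Pdgfc* in Sertoli-only cells was at 43.2% and 34.9% of its level in stroma-only cells, above all 6 stromal markers, which ranged from 5.14% to 6.88% and from 6.93% to 10.4%. *Pdgfd* in Leydig-only cells was at 66.5% and 41.9%, above all 6 markers there too. *Pdgfra* in Sertoli-only cells was at 5.67% and 8.97%, inside the range of the stromal markers and above 1 of them.

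The Sertoli-gated cells with *Pdgfra* were examined singly. In wild type 1979 of them had no *Pdgfra* UMI, 128 had 1 or 2, and 149 had 3 or more, and in the library labelled knockout the numbers were 1357, 105 and 173. Scrublet, a doublet caller that scores each cell against simulated pairs, called 0.707% and 1.55% of the cells without a *Pdgfra* UMI, 44.5% and 31.4% of those with 1 or 2, and 97.3% and 89.6% of those with 3 or more. Nearly all Sertoli-gated cells with several *Pdgfra* UMIs were thus called doublets.

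Other features of these cells moved with *Pdgfra*. *Dcn*, a stromal proteoglycan gene, stood at 21.9 and 31.7 CPM without a *Pdgfra* UMI and at 1199.6 and 1669.5 CPM with 3 or more. *Amh* went the other way, from 1153 and 1142 CPM to 664 and 624 CPM, and the median depth went from 13110 and 14941 UMIs to 24063 and 26738.

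**Figure D3:**
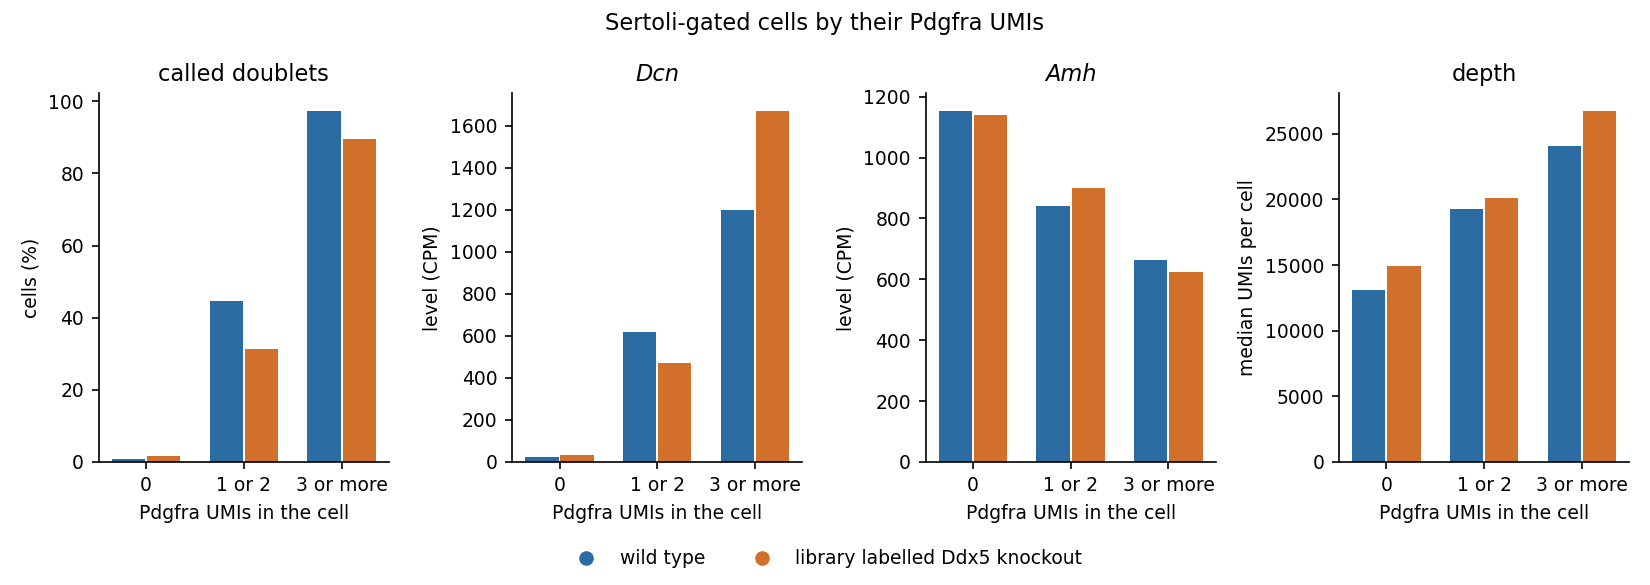
Sertoli-gated cells with 0, 1 or 2, and 3 or more *Pdgfra* UMIs (x axes) in wild type (blue) and the library labelled *Ddx5* knockout (orange), with bars from 0 for the percentage called doublets, the levels of *Dcn* and *Amh* (CPM) and the median UMIs per cell. Doublet calls go from 0.707% and 1.55% to 97.3% and 89.6%, and cells with more *Pdgfra* UMIs are higher in *Dcn* and depth and lower in *Amh*.

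Within stroma and myoid cells the members were graded. Cells that passed any further gate were left out here. Stroma-only cells either passed both arms of the stroma gate (1249 and 1236 cells), the *Tbata* and *Smoc2* arm alone (1536 and 1174) or the *Lum*, *Dpt* and *Aspn* arm alone (95 and 82, given below for the receptor genes only). They were set beside cells of the stroma and myoid gates alone (590 and 438) and myoid-only cells (131 and 60).

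*Pdgfc* was highest in cells of both arms, at 21.1 and 24.8 CPM, then 10.97 and 10.6 CPM in the *Tbata* arm, 4.95 and 5.87 CPM in cells of both gates, and 1.505 and 3.05 CPM in myoid-only cells. *Pdgfd* followed the same order, with 33.6 and 35.5 CPM, 22.1 and 23.9 CPM, 6.42 and 9.50 CPM, and 4.51 and 3.05 CPM. *Pdgfa* ran from 36.8 and 37.0 CPM down to 13.5 and 13.7 CPM. All 3 ligand genes were thus lowest in myoid-only cells, where *Pdgfc* came from 2 UMIs in each library and *Pdgfd* from 6 and 2, and where their intervals overlapped those of cells of both gates.

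*Pdgfrb* ran the opposite way. It stood at 19.9 and 21.4 CPM in cells of both arms, 24.4 and 25.5 CPM in the *Tbata* arm, 31.6 and 36.1 CPM in cells of the stroma and myoid gates, and 48.9 (37.7 to 62.3) and 42.8 (28.4 to 61.8) CPM in myoid-only cells, and the intervals at the 2 ends did not overlap in either library. *Pdgfra* was even between the stroma arms, at 412 and 443 CPM in cells of both and 424 and 437 CPM in the *Tbata* arm. It was lower in cells of the stroma and myoid gates, at 292 and 318 CPM, and in myoid-only cells, at 268 and 276 CPM.

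**Figure D4:**
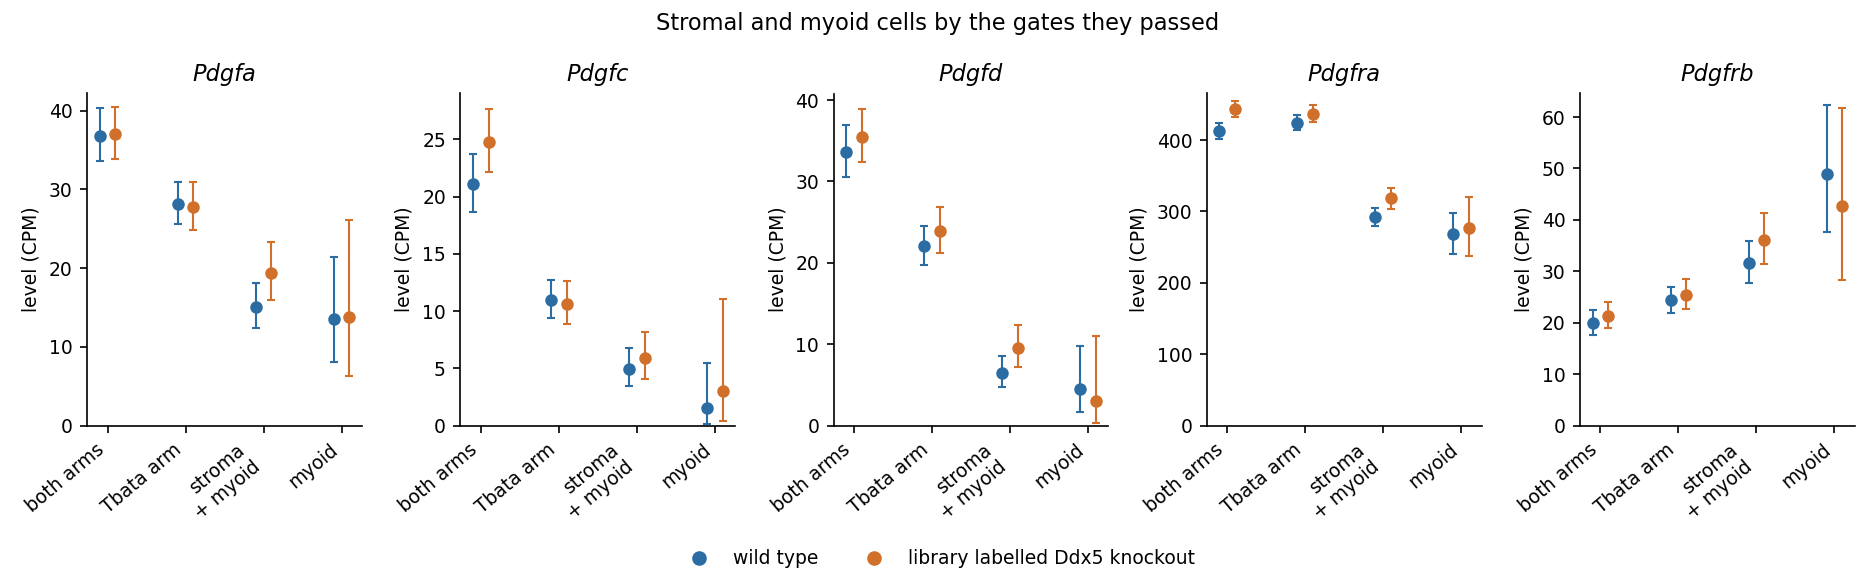
Level (CPM, y axes from 0) of 5 PDGF genes in stromal cells of both gate arms or of the *Tbata* arm alone, in cells of the stroma and myoid gates, and in myoid-only cells (x axes), for wild type (blue) and the library labelled *Ddx5* knockout (orange), with 95% Poisson intervals. The ligand genes go down from left to right, *Pdgfc* from 21.1 to 1.505 CPM in wild type, and *Pdgfrb* goes up from 19.9 to 48.9 CPM.

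Vessel cells were few. Cells of the endothelial gate, with at least 3 of 6 genes, numbered 16 and 13, and those of the pericyte gate 2 and 2. Of 5 further endothelial markers, 3 (wild type) and 4 (library labelled knockout) were above all of the 6 larger gates, with *Plvap* below in both and *Eng* higher in myoid cells of wild type. *Pdgfb* stood at 47.8 and 26.7 CPM in the endothelial gate, but 11 and 3 of its cells also passed the germ gate. The endothelial cells outside the germ gate, 5 and 10, gave 164 and 59.4 CPM, and in wild type 9 of the UMIs lay in the 2 cells that also passed the pericyte gate. The 4 pericyte-gated cells held 14 and 9 *Pdgfrb* UMIs, or 391 and 193 CPM, above any of the 6 larger gates but from 2 cells in each library. Of these 4 cells, 3 also passed the endothelial gate, both wild-type ones among them, and the endothelial gene *Pecam1* stood at 308 and 364 CPM in the 4.

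Across all cells, 16 had 4 or more *Pdgfrb* UMIs, 8 in each library, and none was called a doublet. A cell could pass several gates, and 13 passed the stroma gate, 6 the myoid, 3 the endothelial and 3 the pericyte gate. The 3 in the pericyte gate, 2 of them wild-type, held every *Rgs5* UMI of the 16 (25 and 16), a pericyte gene, and every UMI of the endothelial genes *Kdr* (20 and 19) and *Cldn5* (9 and 31). The other 13, of neither vessel gate, thus held no UMI of these genes. *Notch3*, another mural cell gene, stood in those 13 at 56.8 CPM (5 UMIs) in wild type and 51.4 CPM (6 UMIs) in the other library, beside 19.96 and 19.95 CPM in stromal or myoid cells with no *Pdgfrb* UMI. *Cspg4*, a further pericyte marker, was read only over all 8 cells of each library. It stood at 48.5 and 228.5 CPM, beside 50.1 and 56.9 CPM in the cells with no *Pdgfrb* UMI, and so was not higher in wild type.

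Cells in division were compared with the rest inside each gate, where cycling meant at least 5 UMIs of *Mki67*, *Top2a*, *Cdk1* and *Ccnb1* together. Cycling cells were the deeper ones, with a median of 18340 UMIs against 11928 in wild-type Sertoli cells. *Pdgfa* in Sertoli cells was at 346 CPM in the 931 cycling cells and 407 CPM in the 1325 others of wild type, a ratio of 0.851 (0.823 to 0.880), and at 331 and 356 CPM in the other library, a ratio of 0.928 (0.892 to 0.966). *Pdgfb* gave 0.877 and 0.762. The Sertoli marker *Rhox8* gave 0.668 and 0.630, further from 1 than either ligand gene.

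*Pdgfra* in stroma was at 320 CPM in cycling and 397 CPM in other cells of wild type (ratio 0.806, 0.776 to 0.837), and at 366 and 427 CPM in the other library (0.857, 0.823 to 0.892). *Pdgfd* gave 0.621 and 0.764 and *Pdgfc* 0.669 and 0.686. *Dcn* gave 0.604 and 0.668 in the same cells, so the stromal members were lower beside a stromal marker that was lower too. *Pdgfrb* in stroma gave 0.755 (0.646 to 0.879) in wild type and 1.08 (0.919 to 1.26) in the library labelled knockout, on different sides of 1. In myoid cells, its highest gate, it gave 0.597 (0.462 to 0.765) and 0.940 (0.713 to 1.23).

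The libraries were then compared within each gate. Most members differed little in the gates where they were highest. *Pdgfa* in Sertoli cells was at 0.913 (0.889 to 0.937) times its wild-type level in the other library, or -0.13 on the log2 scale with 10 CPM added to both, a scale that understates differences of low genes. In stroma *Pdgfra* was at 1.10 (1.07 to 1.12; log2 0.13), *Pdgfc* at 1.22 (1.07 to 1.38; log2 0.17) and *Pdgfd* at 1.17 (1.07 to 1.29; log2 0.16), and in myoid cells *Pdgfrb* at 1.09 (0.917 to 1.29; log2 0.093). In myoid-only cells *Pdgfrb* was at 0.874, on the other side of 1. With 1 library each, the spread between animals is unknown, and an interval away from 1 does not show a difference between genotypes.

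A ratio past 1.5-fold in either direction served as the yardstick, for genes whose UMIs in the gate summed to 20 or more. In the Sertoli gate 2 of 6 members were past it, *Pdgfd* and *Pdgfra*, beside 12.4% of 16427 genes. *Pdgfra* was at 27.0 CPM and 41.3 CPM, a ratio of 1.53 (1.40 to 1.66), and *Pdgfd* at a ratio of 1.92 (1.41 to 2.64) from 71 and 107 UMIs. All 6 stromal markers were higher in the same cells of the library labelled knockout, with ratios from 1.20 for *Dlk1* to 1.73 for *Dcn*, and doublets made up 9.57% and 12.8% of the gate. Without doublets *Pdgfd* was at 1.30 (0.712 to 2.38) and *Pdgfra* was at 3.09 and 7.35 CPM, a ratio of 2.38 (1.84 to 3.08), with *Dcn* at 2.57. In Sertoli-only cells 3 of 6 members were past 1.5-fold, with *Pdgfrb* at 1.56 beside the same 2, where 9.70% of 15738 genes were. The part of stromal RNA in these ratios was not tested.

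In stroma 1 of 6 members was past 1.5-fold, *Pdgfb*, beside 12.7% of 17345 genes, and in myoid cells again 1 of 6, *Pdgfb*, beside 8.97% of 13808 genes. *Pdgfb* in stroma came from 69 and 20 UMIs, a ratio of 0.348 (0.200 to 0.579), and in myoid cells from 39 and 13 UMIs, a ratio of 0.470 (0.230 to 0.899). Both rested on cells of several gates. Stroma-only cells held 5 and 11 *Pdgfb* UMIs and myoid-only cells 1 and 0, and of the members with enough UMIs 0 of 5 in stroma-only cells and 0 of 3 in myoid-only cells were past 1.5-fold, beside 7.88% of 16025 and 16.0% of 8489 genes. Markers of other cells moved with *Pdgfb*. Of the 6 Sertoli markers 5 in stroma and all 6 in myoid cells were lower in the library labelled knockout, with *Rhox8* at ratios of 0.664 and 0.607 and *Sox9* at 1.06 and 0.994. In the Sertoli gate itself *Rhox8* was at 0.740 and *Sox9* at 1.05. Of the stromal cells, 40 of wild type and 3 of the other library also passed the germ gate. The germ cell gene *Dazl* stood at 52.8 and 3.17 CPM in stromal or myoid cells with no *Pdgfrb* UMI. Their part in these ratios was not tested.

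In Leydig cells 0 of 4 members were past 1.5-fold, beside 11.5% of 11251 genes. *Pdgfd* had the widest difference there, at 16.3 and 11.1 CPM and a ratio of 0.684 (0.424 to 1.09). In macrophages 3 of 3 were past it and higher, beside 22.6% of 6498 genes, with ratios of 2.46 (1.30 to 4.85) for *Pdgfa*, 1.63 (0.683 to 4.05) for *Pdgfb* and 2.93 (1.65 to 5.46) for *Pdgfra*. These rest on 31 and 23 cells, and in macrophage-only cells no member had the 20 UMIs needed. Markers of other cells moved with them in the gate. All 6 stromal markers were higher in the library labelled knockout, with ratios from 1.60 for *Col3a1* to 3.20 for *Dlk1*, and of the 6 Sertoli markers 4 were higher, up to 4.82 for *Sox9*, and 2 lower, *Rhox8* at 0.887 and *Aard* at 0.485. Their part in the ratios was not tested.

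In germ cells 3 of 3 members were past 1.5-fold, beside 70.8% of 12394 genes, so that such a ratio was the rule in this gate, where the median over all genes was -0.42 on the log2 scale. *Pdgfa* was at 104 and 13.0 CPM from 448 and 6 UMIs, a ratio of 0.125 (0.0456 to 0.274), and in germ-only cells at 58.5 and 15.5 CPM, a ratio of 0.266 (0.0702 to 0.715). *Pdgfb* was at 39.6 CPM in wild type and had no UMI in the other library, which is at least 6.11-fold lower against a floor of 3 UMIs over its 12 cells. The bound is lower in germ-only cells, at least 2.995-fold, and at no more than 5% mitochondrial UMIs, at least 3.89-fold. That limit left 52 of the 125 wild-type cells and all 12 others, and the median mitochondrial share of the gate was 5.41% in the former library and 2.78% in the latter. Sertoli RNA moved with *Pdgfa* and *Pdgfb*. In wild type 39 germ-gated cells, and in the other library 0, also passed the Sertoli gate. *Rhox8* stood at 386 CPM in those 39 cells, at 15.8 CPM in the other 86, and at 2.16 CPM in the 12 of the library labelled knockout. *Pdgfra* was at 17.1 and 28.1 CPM, a ratio of 1.64 (0.834 to 2.98) from 74 and 13 UMIs, but in germ-only cells at 6.61 and 3.89 CPM, in the other direction, from 7 UMIs and 1. There 2 of 2 members with enough UMIs were past 1.5-fold, *Pdgfa* and *Pdgfb*, beside 69.5% of 7678 genes. All 6 stromal markers were higher with *Pdgfra* in the whole gate, with ratios from 1.21 for *Col1a1* to 4.22 for *Ogn*. The part of Sertoli and stromal RNA in these ratios was not tested.

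**Figure D5:**
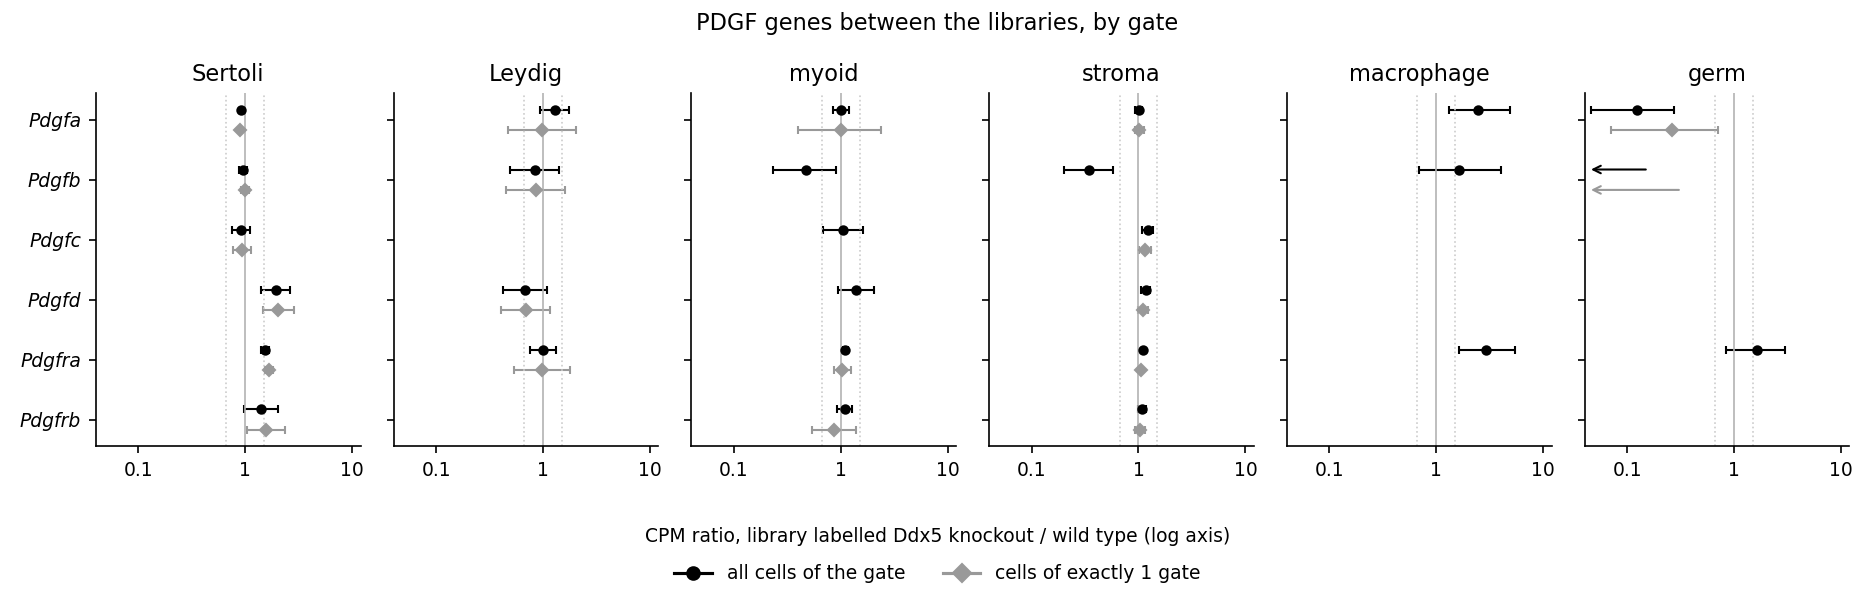
CPM in the library labelled *Ddx5* knockout divided by CPM in wild type (log x axis, grey line at 1, dotted lines at 1.5-fold either way) for each PDGF gene with at least 20 UMIs, in 6 gates, over all cells of the gate (black circles) and cells of exactly 1 gate (grey diamonds), with 95% intervals and arrows for upper bounds at 3 UMIs where the library labelled knockout held none. Ratios in stroma and myoid cells stay within 1.5-fold apart from *Pdgfb* at 0.348 and 0.470, with *Pdgfd* in myoid cells at 1.39 (0.947 to 2.02). They lie far below 1 for *Pdgfa* and *Pdgfb* in germ cells.

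Other genes of the pathway were described by the same yardstick. The list held 29 genes, all in the table, and 3 of 28 with enough UMIs were past 1.5-fold in Sertoli cells, 3 of 23 in Leydig cells, 1 of 26 in myoid cells, 2 of 28 in stroma, 4 of 18 in macrophages and 20 of 26 in germ cells, to be read beside the shares of all genes given above for each gate. Among feedback inhibitors of receptor signalling, *Spry2* in stroma was at 45.6 and 29.1 CPM, lower in the library labelled knockout. It was lower in myoid cells too, at 47.0 and 32.3 CPM, and in Leydig cells, at 24.9 and 15.3 CPM. *Spry1* in Leydig cells was also lower, at 10.3 and 5.91 CPM (31 and 17 UMIs). *Spry4* in myoid cells was higher, at 13.95 and 22.05 CPM.

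By place, 27 of the 29 reached 10 CPM in a gate of both libraries, and 6 of these were at least 2-fold above the next gate in the same gate of both, beside 20.3% of 11423 genes. The feedback gene *Spry1* was a myoid gene, at 194 and 174 CPM, and so was highest in the gate where *Pdgfrb* was. The phosphatase *Ptprj*, which acts on PDGF receptors, was highest in macrophages at 52.7 and 61.0 CPM, as was the adaptor *Grb2* at 199 and 194 CPM. Of the receptors of the same class, *Csf1r* stood at 798 and 583 CPM in macrophages and *Kit* at 55.1 and 55.3 CPM in Leydig cells. *St14*, a protease that can release active PDGF-C, was highest in germ cells at 17.4 and 17.3 CPM. None of the 3 ligand-binding genes *Nrp1*, *Lrp1* and *Sparc* met the 2-fold mark.

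For each member the genes of most like profile over 8 gates were ranked by the root mean square difference of centred log2 levels in wild type, among 7106 genes with at least 50 CPM in a gate. The nearest to *Pdgfa* were AU015836, *Lsr*, *Hmgb3*, *Zfpm1* and *Mycn*, all highest in Sertoli cells, at distances of 0.32 to 0.36. In the other library *Mycn* was also 5th, at 0.37, and the others were at places 16, 101, 156 and 173. The nearest to *Pdgfra* were *Igfbp6*, *Vcan*, *Ogn*, *Adamts5* and *Sulf2*, all highest in stroma, at 0.27 to 0.35, and at places 33, 304, 107, 240 and 10 in the other library.

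The nearest to *Pdgfrb* were *Slc9a3r2*, *Eng*, *Notch3*, *Vwa1* and *Ecscr*, at 0.15 to 0.34, all highest in the 2 pericyte-gated cells of wild type. *Notch3* was 3rd in wild type (0.25) and 1st in the library labelled knockout (0.22). For *Pdgfb* they were *Nrarp*, *Cracr2b*, *Atp8a1*, *Pcp4l1* and *Limch1*, at 0.43 to 0.52, again highest in those 2 cells. For *Pdgfc* they were *Atxn10*, *Rab28*, *Bag5*, *Zfpl1* and AU020206 and for *Pdgfd* *Epm2aip1*, *Dpy19l1*, *Hyi*, *Tmem38a* and Gm49266, the latter 5 again highest in the 2 pericyte-gated cells, where *Pdgfd* itself had 1 UMI, and all 10 were at place 908 or farther in the other library.

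With only the 6 larger gates, chosen once the data were known, other genes came first. For *Pdgfra* they were *Col6a2*, *Ltbp4*, *Dnm3os*, *Ednra* and *Hhip*, of which *Col6a2* was 3rd in the other library, at distances of 0.15 and 0.17. For *Pdgfd* the nearest was CT010467.1 in both libraries, at 0.12 and 0.13, and then Gm42418, a locus known to overlap ribosomal RNA repeats. For *Pdgfrb* the nearest was *Hsd11b2*, for *Pdgfa* *Mapk13*, for *Pdgfb* *Atg101* and for *Pdgfc* *Sec23a*. *Slc9a3r2* for *Pdgfrb*, *Atxn10* for *Pdgfc* and *Dpy19l1* for *Pdgfd* were named by both sets of gates.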

How the data were processed

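Single-cell RNA was measured in 16 numbered libraries, 8 for each genotype, with a droplet kit that counts mRNA near its 3′ end. Per the labels, the authors used Cell Ranger 3.1.0, Seurat 3.1.5 and GRCm38. The deposited values are unnormalised UMI counts per gene and cell, whose 2 barcode suffixes were tied to the genotypes by the number of cells each holds. Whether counting used the strand is not given in the sources used here.

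Gates, summed CPM, ratios and intervals (exact Poisson, Clopper-Pearson and conditional binomial, all 95%) were computed in Python 3.11.15 with NumPy 2.4.6, SciPy 1.17.1 and pandas 2.3.3, and drawn with matplotlib 3.10.9. Steps were tested on simulated data. Scrublet (scanpy 1.11.5), run on each library by itself, marked 289 cells (4.57%) and 282 cells (5.70%) as doublets, which stayed in unless stated. A level of 0 was bounded by a floor of 3 UMIs over the gate. The highest gate was taken over the 6 larger gates, because the endothelial and pericyte gates held few cells. Positions came from GENCODE M21, matched by symbol for 6 of 6 genes. The text names the 6 members, the fixed pathway and marker lists, and for each member the 5 genes of nearest profile, and other genes were named after their values were seen. Members and lists were chosen with earlier results of these data known. The alternatives were 8 other choices of cells, gates, doublets, scaling and depth.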

Additional observations from a re-analysis of the deposited data

How the results depend on the processing

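Levels are those of the highest gate in wild type (375 CPM for *Pdgfa*, 39.6 for *Pdgfb*, 12.8 for *Pdgfc*, 22.02 for *Pdgfd*, 374 for *Pdgfra* and 31.9 for *Pdgfrb*). Under the alternatives 25 levels stayed within the counting interval and 23 moved, and 33 log2 ratios stayed and 9 moved, of which that of *Pdgfrb* changed sign in cells of exactly 1 gate. Sertoli cells for *Pdgfa*, stroma for *Pdgfc*, *Pdgfd* and *Pdgfra*, and myoid cells for *Pdgfrb* were highest in both libraries under all of these settings. *Pdgfb* was highest in germ cells of wild type except at no more than 5% mitochondrial UMIs (germ 25.2, Sertoli 33.3 CPM) and after thinning (35.8 and 36.3 CPM). In cells of exactly 1 gate the levels were 392 CPM for *Pdgfa*, 15.7 for *Pdgfc*, 27.2 for *Pdgfd*, 417 for *Pdgfra* and 48.9 for *Pdgfrb*. Without doublets *Pdgfa* was at 397 CPM. With marker minimums doubled *Pdgfd* was at 24.3 and *Pdgfra* at 391 CPM. With mitochondrial and ribosomal protein genes left out of the total, which raises every CPM by construction, the levels were 479.9 for *Pdgfa*, 50.8 for *Pdgfb*, 16.9 for *Pdgfc*, 28.9 for *Pdgfd*, 492 for *Pdgfra* and 42.7 for *Pdgfrb*. Thinned cells gave 397 for *Pdgfa*, 24.1 for *Pdgfd* and 401 for *Pdgfra*, and the mean of per-cell CPM 395 for *Pdgfa*, 24.3 for *Pdgfd*, 399 for *Pdgfra* and 35.9 for *Pdgfrb*. At no more than 5% mitochondrial UMIs *Pdgfra* was at 385 CPM, and Sertoli-only cells, chosen after seeing the data, gave 33.6 CPM of *Pdgfb*.

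The log2 ratio in cells of exactly 1 gate was -0.17 for *Pdgfa*, 0.074 for *Pdgfra* and -0.16 for *Pdgfrb*, the last having been 0.093 in the whole gate, both with intervals of the ratio that held 1. Thinned cells gave -0.22 for *Pdgfa* and 0.081 for *Pdgfra*, and doubled minimums 0.093 for *Pdgfra*. For *Pdgfb* in germ cells, at 0 UMIs in the library labelled knockout, the value is set by the 10 CPM added and the wild-type level, and is neither an estimate nor a bound. It was -2.31, and -2.35 with doubled minimums, -2.37 without doublets and -2.60 with the other total. The number of members past 1.5-fold in Sertoli cells was 1 of 5 without doublets (12.6% of all genes), in myoid cells 0 of 5 without doublets (8.61%) and 0 of 3 in 1-gate cells (16.0%), in stroma 0 of 5 in 1-gate cells (7.88%), and in macrophages 0 in 1-gate cells, where none had 20 UMIs. These were also chosen after seeing the data, and other causes of the moves were not tested.

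No paired analysis was possible because the barcodes carry no library number within a genotype, and for the same reason no replicate could be left out. The macrophage gate, with 31 and 23 cells, and the germ gate, with 125 and 12, are limited by cell number.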
